A study of Homo sapiens with 10 samples.

Results

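The receptor tyrosine kinases outside the ERBB family were examined as 49 genes of 16 groups, taken from a fixed list of gene symbols among 20090 protein-coding genes. HER2 itself and the other ERBB receptors were left out. Each gene was read as its body plus 10 kb on each side, and all 49 symbols were found in the annotation. SKBR3 and BT474 are established breast cancer cell lines in which ERBB2, the gene of HER2, is amplified. HER2 was mapped by ChIP-exo, in which an exonuclease trims the precipitated DNA, in asynchronous cells given vehicle (water) or 100 ng/ml EGF for 3 hours without serum deprivation. There was 1 peak list for each line and treatment, so these 4 lists had no replicates. The histone mark H3K4me1 was mapped by ChIP-seq in 2 replicates of each line, and its enriched stretches were deposited as islands with a read count. The labels call the H3K4me1 cells asynchronous and name no treatment. In the paper they are described as EGF-treated, and the lists did not settle which holds. No label says whether the replicates were separate cultures, so p-values measure the spread between these libraries alone. The lines differed in growth medium, and the HER2 antibody lots differed between them, so neither can be told apart from the line.

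Receptor tyrosine kinases are membrane proteins that bind a ligand outside the cell, pair up and phosphorylate each other and their adaptors inside it. In breast cancer cells driven by HER2, several of them, such as MET, IGF1R and AXL, are known as alternative sources of growth and survival signals. H3K4me1 marks enhancers and the flanks of active promoters, so its spread over a gene is a readout of regulatory DNA and not of RNA. No RNA was measured in these files.

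The HER2 sites that were shared most widely between lists are printed here, because they carry the comparison of the 4 lists below. Each is the plus strand of GRCh37 over 1 deposited peak. Capitals mark the 7-base core CGTNTGC, searched on both strands, in which N is any base. Its letters are those of the motif that the paper found in its HER2 peaks. The first 3 sites were present in 3 of the 4 lists, and the last 2 were present in both EGF lists and lay in H3K4me1 islands of all 4 libraries. These last 2 were chosen after their values were seen.
AXL intron, chr19:41727971-41728255: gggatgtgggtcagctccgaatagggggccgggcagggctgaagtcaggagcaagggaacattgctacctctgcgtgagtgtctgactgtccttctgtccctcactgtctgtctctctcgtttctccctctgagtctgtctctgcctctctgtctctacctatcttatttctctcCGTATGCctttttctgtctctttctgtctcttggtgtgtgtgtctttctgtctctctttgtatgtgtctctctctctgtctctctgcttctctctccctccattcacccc
DDR2 intron, chr1:162643618-162643855: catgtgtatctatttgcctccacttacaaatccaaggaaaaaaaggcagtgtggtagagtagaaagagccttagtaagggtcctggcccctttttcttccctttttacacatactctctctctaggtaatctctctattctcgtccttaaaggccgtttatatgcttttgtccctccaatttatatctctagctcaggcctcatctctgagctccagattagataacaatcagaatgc
NTRK2 intron, chr9:87455996-87456205: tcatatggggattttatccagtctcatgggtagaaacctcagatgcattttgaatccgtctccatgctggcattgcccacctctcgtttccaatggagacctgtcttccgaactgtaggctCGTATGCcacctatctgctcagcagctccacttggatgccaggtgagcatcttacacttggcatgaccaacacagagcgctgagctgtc
MUSK intron, chr9:113511608-113511818: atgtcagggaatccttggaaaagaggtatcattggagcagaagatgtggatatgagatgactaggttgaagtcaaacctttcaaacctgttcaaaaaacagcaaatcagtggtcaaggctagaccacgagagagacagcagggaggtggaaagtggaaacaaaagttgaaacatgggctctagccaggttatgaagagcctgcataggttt
PTK7 intron, chr6:43065869-43066069: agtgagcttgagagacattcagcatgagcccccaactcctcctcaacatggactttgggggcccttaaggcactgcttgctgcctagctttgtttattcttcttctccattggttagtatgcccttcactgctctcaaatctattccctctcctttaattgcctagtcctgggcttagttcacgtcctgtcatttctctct

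The H3K4me1 libraries held 70251 and 72888 islands in SKBR3 and 89478 and 96293 in BT474, with 15097245 to 18714089 reads in islands. Levels are given as RPM, the reads of islands in a window for every 1000000 island reads of the library after TMM scaling, and depend on the length of the gene, so genes are compared with each other only by cover, the percent of the window in islands. ERBB2 was covered by islands over 98.1% to 100% of its window in all 4 libraries. The luminal markers GATA3, FOXA1, KRT8, KRT18, KRT19, ELF3 and SPDEF carried islands in every library, whereas CDH1, the epithelial cadherin, carried none in either SKBR3 library and was covered over 51.2% and 55% in BT474. Of 11 markers of blood, endothelium, mesenchyme and basal epithelium, 9 carried islands in each library. Their summed level was 889.2 and 914.5 RPM in SKBR3 and 672.7 and 721.5 in BT474. TP63, a basal factor, held most of that sum in both lines (501 and 486 RPM in SKBR3, 358 and 397 in BT474). The 8 luminal markers summed to 582.2 to 591.6 RPM in SKBR3 and 772.3 to 791.0 in BT474. Such sums depend on the number and length of the genes, so they compare the lines and not the marker sets with each other. Markers moved both ways, as COL1A1 held 3.69 and 4.87 RPM in SKBR3 and 63 and 64.3 in BT474. COL3A1 and ZEB1 had no island in SKBR3, and SPI1 and KRT14 none in BT474. The part of such marks in the receptor results was not tested. PECAM1 was not matched by symbol and was not analysed here.

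H3K4me1 differed between the lines over most receptor genes, in both directions. By edgeR's quasi-likelihood test with Benjamini-Hochberg adjustment over 17737 protein-coding windows, 21 of the 49 receptors held more reads in SKBR3, 17 held more in BT474 and 11 did not pass an adjusted p of 0.05. Over all windows tested, 28.0% were called higher in SKBR3, 34.8% higher in BT474 and 62.8% in either direction. The median log2 fold change, SKBR3 over BT474, was 0.23 among the receptors and -0.20 over all windows, and the median absolute log2 fold change was 1.02 and 1.09. Scaling by library size in place of TMM moved the median of all windows from -0.20 to -0.34 and left 17 receptors higher in SKBR3 and 19 higher in BT474. With 2 libraries a line, single libraries mattered. Without either BT474 library fewer receptors were called in each direction, and so were fewer of all windows. How many of all called windows kept their call in every fit that left out a library was not counted.

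**Figure D1:**
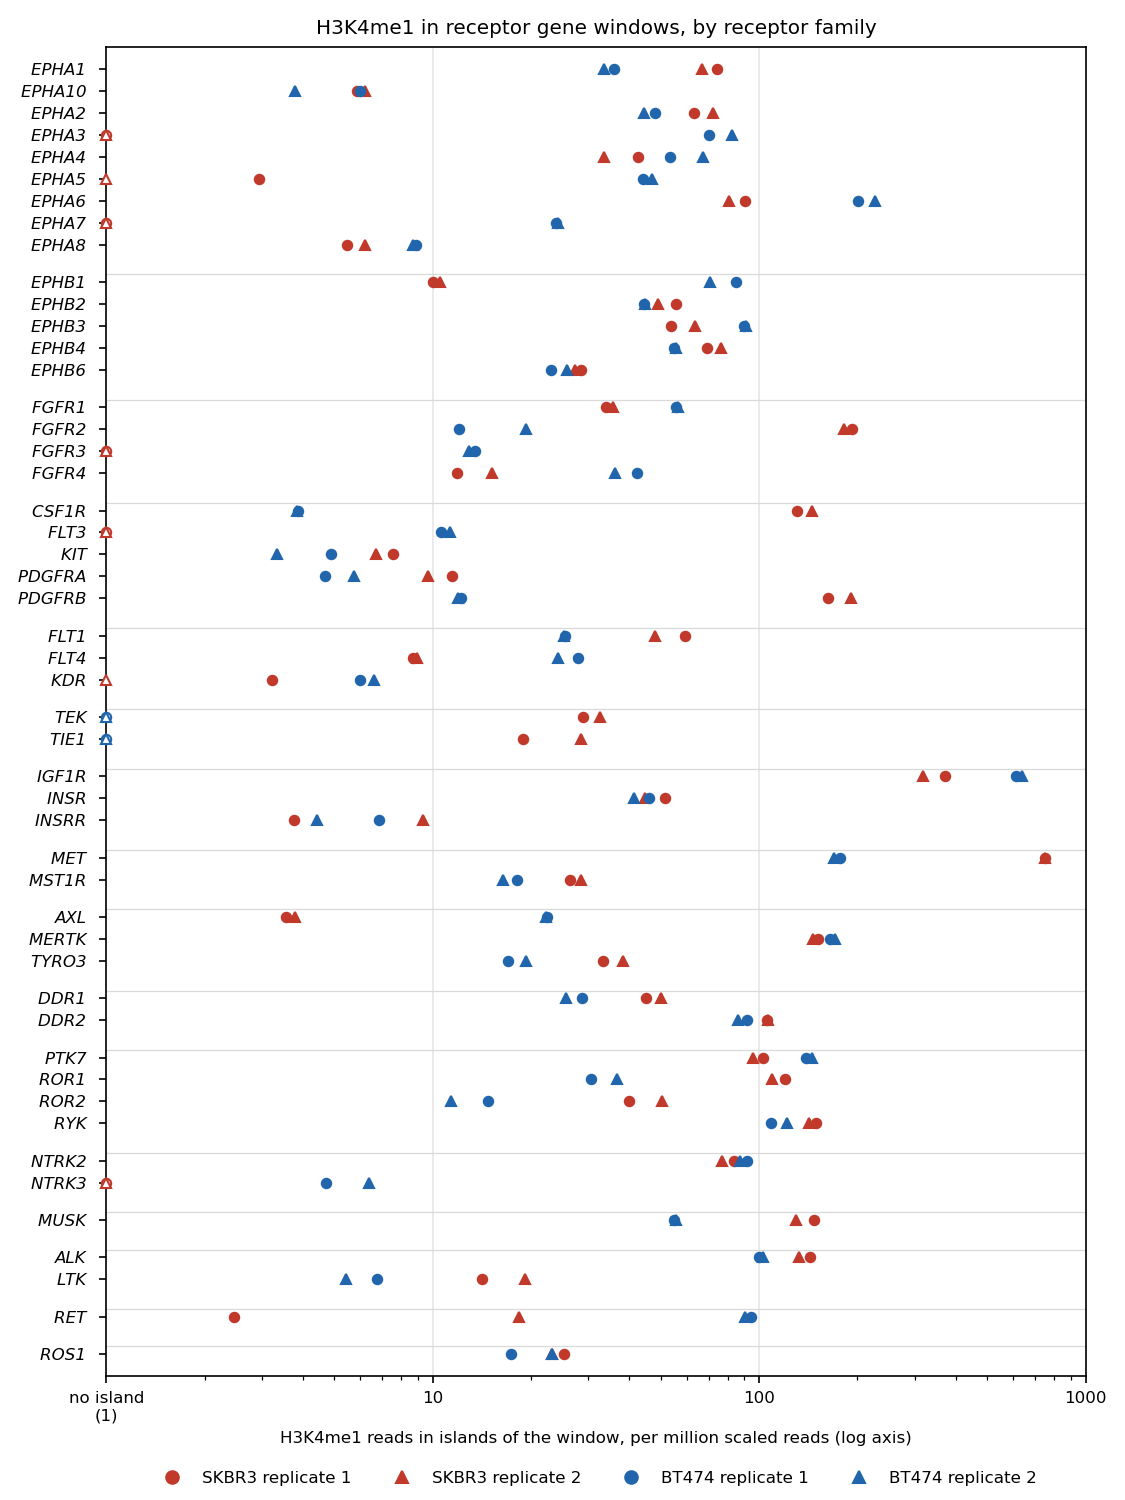
H3K4me1 reads in islands of each receptor window, in RPM on a log axis, for 2 SKBR3 libraries (red) and 2 BT474 libraries (blue), with open symbols on the left edge where no island was listed. Replicates of a line mostly sit close together. The SKBR3 symbols of MET, CSF1R, PDGFRB and FGFR2 stand far to the right of those of BT474. The EPHA3, EPHA7 and RET symbols of BT474 stand to the right of those of SKBR3.

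MET, the receptor of hepatocyte growth factor (chromosome 7, 116312250 to 116438431, plus strand), was the receptor with the highest island cover in SKBR3. Islands took up 78.8% and 85.8% of its window in the SKBR3 replicates and 35.2% and 33% in the BT474 replicates. It held 753.5 and 753.2 RPM in SKBR3 and 177.4 and 169.2 in BT474, so the lines did not overlap. The log2 fold change was 2.12 ± 0.04 (SE, n = 2 and 2, edgeR adjusted p = 0.000531), a 4.35-fold difference. The longest stretch in islands of both SKBR3 replicates ran 35.2 kb within the gene, against 8.6 kb in BT474. The 42.4 kb marked in both BT474 replicates lay entirely inside the 111.6 kb marked in both SKBR3 replicates. MST1R, the related receptor of macrophage-stimulating protein, was 1.58-fold higher in SKBR3.

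CSF1R and PDGFRB, the receptors of colony stimulating factor 1 and of PDGF B, lie next to each other on chromosome 5 and their windows overlap, so they are not separate observations. CSF1R (149432854 to 149492935, minus strand) held 130.6 and 145.2 RPM in SKBR3 and 3.863 and 3.844 in BT474. Its log2 fold change was 5.16 ± 0.11 (SE, edgeR adjusted p = 0.000576), a 35.8-fold difference. PDGFRB (149493402 to 149535435, minus strand) held 162.2 and 191.2 RPM in SKBR3 and 12.2 and 11.97 in BT474, with a log2 fold change of 3.87 ± 0.12 (edgeR adjusted p = 0.000684). In SKBR3 islands took up 57.1% and 70.6% of the PDGFRB window and 33.5% and 41.1% of the CSF1R window, and in BT474 7.74% and 7.42% and 2.25% and 2%. The blood markers were also higher in SKBR3, beside CSF1R, a receptor of the myeloid lineage. CD34 held 75.9 and 81.2 RPM in SKBR3 and 8.64 and 7.88 in BT474, PTPRC held 221 and 187 against 78.7 and 80.3, and SPI1 9.28 and 7.75 against none. Their part in the result was not tested. In the same PDGF receptor class, PDGFRA was 2.03-fold higher in SKBR3 at low levels, with all of its island bases also inside another annotated gene, FLT3 carried no island in SKBR3, and KIT did not pass the test.

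FGFR2, a receptor of fibroblast growth factors (chromosome 10, 123237846 to 123357972, minus strand), held 192.5 and 181.7 RPM in SKBR3 and 12 and 19.35 in BT474. The log2 fold change was 3.59 ± 0.26 (SE, edgeR adjusted p = 0.00181), a 12-fold difference. Islands of both SKBR3 replicates took up 57 kb, and the 5.6 kb marked in both BT474 replicates lay within them. The other 3 FGF receptors ran the opposite way. FGFR3 had no island in SKBR3 and held 13.47 and 12.92 RPM in BT474, but 54.5% of its BT474 island bases lay in the neighbouring gene LETM1. FGFR4 held 11.88 and 15.14 RPM in SKBR3 and 42.39 and 36.18 in BT474, a log2 fold change of -1.54 ± 0.18 (edgeR adjusted p = 0.00467), and FGFR1 was 1.61-fold higher in BT474.

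**Figure D2:**
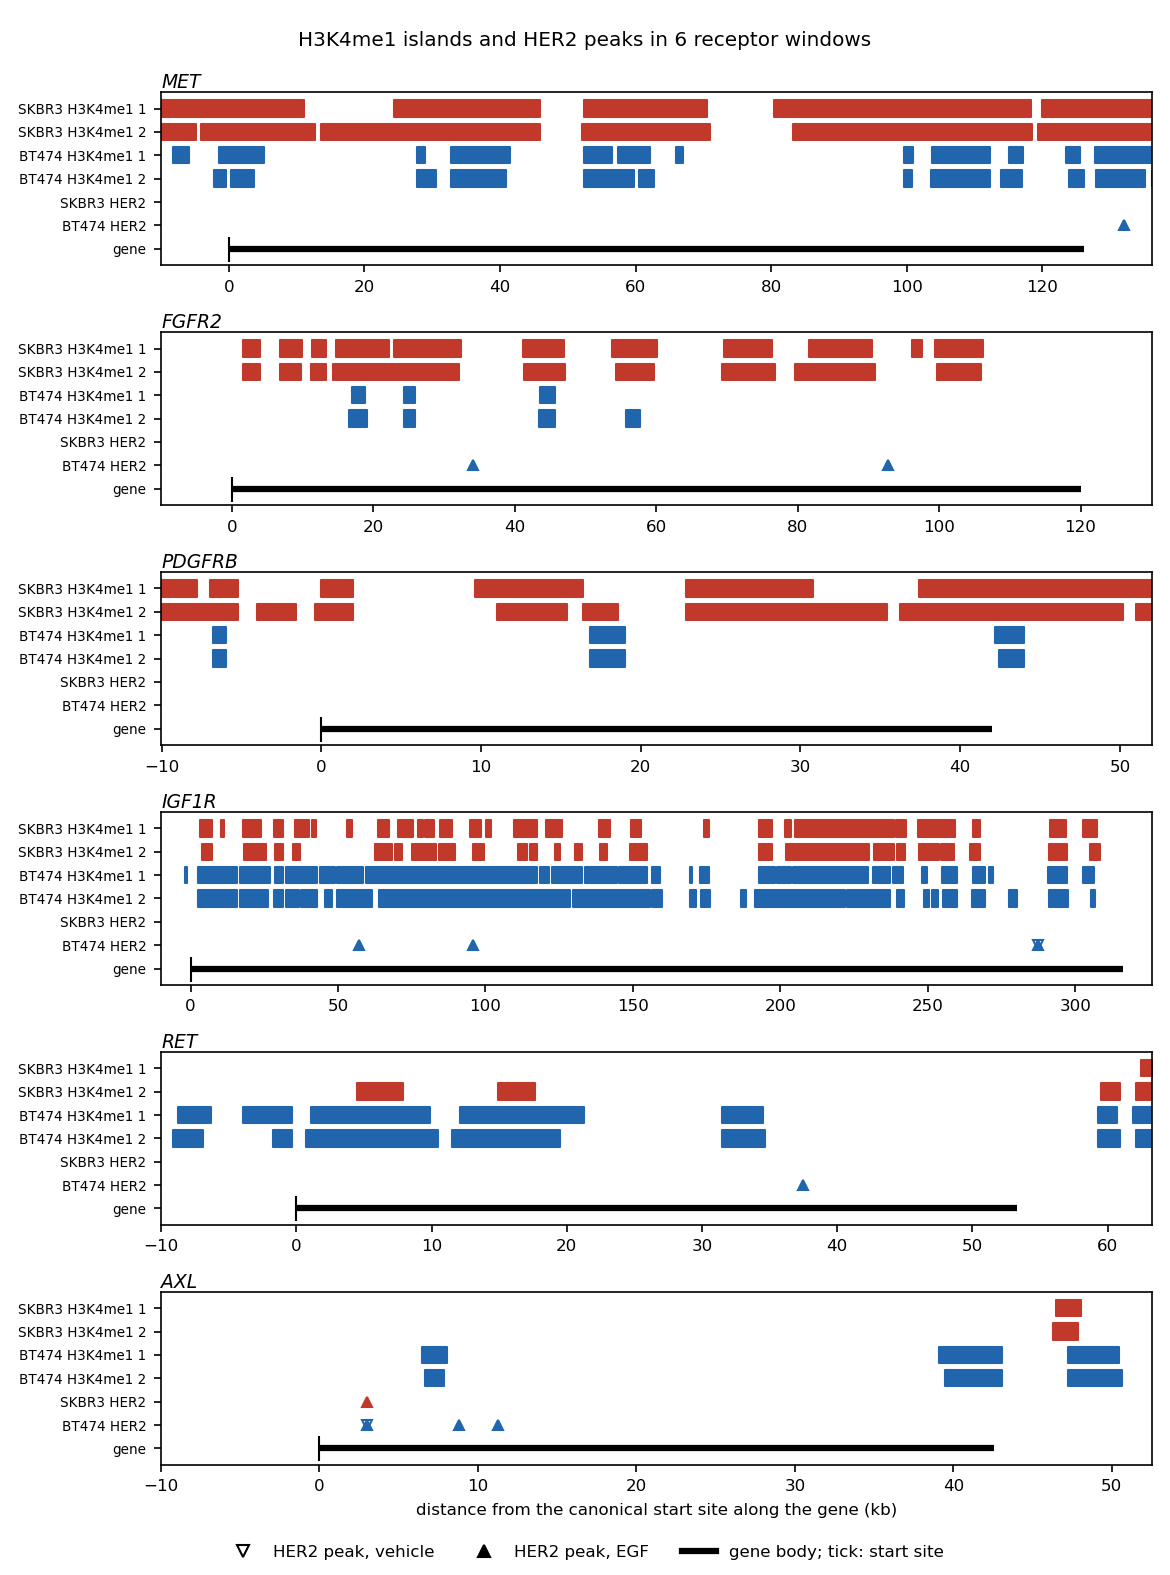
H3K4me1 islands of each library (red SKBR3, blue BT474) and HER2 peaks (open triangles vehicle, filled triangles EGF) in 6 receptor windows, against distance in kb from the canonical start site along the gene (black bar). Islands fill much of MET and PDGFRB in SKBR3 and much of IGF1R in BT474, and the SKBR3 islands of the AXL window lie beyond the end of the gene.

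The angiopoietin receptors TEK and TIE1, known from blood vessel endothelium, carried islands in SKBR3 but none in either BT474 library. TEK held 28.81 and 32.57 RPM and TIE1 held 18.91 and 28.38. Both passed the edgeR test, with adjusted p = 0.00127 and 0.00278. The files list only islands above the caller's minimum, so no fold is given for a receptor with no island in a line. CDH5, an endothelial cadherin, was covered over 27.9% to 33.4% of its window in all 4 libraries. By reads CDH5 held more in BT474, with 70.5 and 66 RPM against 37 and 43.9 in SKBR3. FLT1, a VEGF receptor, held 59.06 and 48.12 RPM in SKBR3 and 25.36 and 25.27 in BT474, with a log2 fold change of 1.08 ± 0.14 (edgeR adjusted p = 0.00537). FLT4, the VEGF receptor of lymphatic vessels, ran the other way with 8.671 and 8.921 against 27.8 and 24.14 RPM, a log2 fold change of -1.56 ± 0.14 (edgeR adjusted p = 0.00281). These reads lay mostly in its flanks, with 0% in the gene body in SKBR3 and 14.5% in BT474. KDR held 3.209 RPM in SKBR3 replicate 1, no island in SKBR3 replicate 2 and 5.998 and 6.618 RPM in BT474, and did not pass the test.

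Of the 4 WNT co-receptors, ROR1, ROR2 and RYK were higher in SKBR3 and PTK7 was higher in BT474. ROR1 held 119.9 and 109.3 RPM in SKBR3 and 30.6 and 36.62 in BT474, with a log2 fold change of 1.77 ± 0.13 (edgeR adjusted p = 0.00168). ROR2 held 40.01 and 50.28 against 14.74 and 11.41, with a log2 fold change of 1.78 ± 0.21 (edgeR adjusted p = 0.0045). RYK and PTK7 differed less, by 1.27-fold and 1.43-fold. MUSK, the receptor that organises the neuromuscular synapse, held 146.8 and 130 RPM in SKBR3 and 54.95 and 55.59 in BT474, with a log2 fold change of 1.32 ± 0.09 (edgeR adjusted p = 0.00155). LTK, a relative of ALK, held 14.2 and 19.19 against 6.76 and 5.42, with a log2 fold change of 1.45 ± 0.26 (edgeR adjusted p = 0.0135). Smaller differences in favour of SKBR3 were called for TYRO3 (1.97-fold), the collagen receptors DDR1 (1.75-fold) and DDR2 (1.19-fold), and ALK (1.36-fold).

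The 14 Eph receptors, which bind ephrins on neighbouring cells, were split, with 3 higher in SKBR3, 7 higher in BT474 and 4 not called. EPHA3 carried no island in SKBR3 and 70.3 and 82.44 RPM in BT474 (edgeR adjusted p = 0.00113). EPHA7 likewise carried none in SKBR3 and 23.94 and 24.2 in BT474 (edgeR adjusted p = 0.00138). EPHA5 had a single SKBR3 value of 2.936 RPM in replicate 1, none in replicate 2, and 44.07 and 47.08 in BT474, with an edgeR adjusted p of 0.0344 that became 0.0883 by DESeq2. These 3 genes had the mark at their start sites in BT474, as described below. EPHB1 held 10.04 and 10.54 RPM in SKBR3 and 84.63 and 70.46 in BT474, with a log2 fold change of -2.91 ± 0.14 (edgeR adjusted p = 0.000935). EPHA6 held 90.33 and 81.1 against 201.3 and 226.6, with a log2 fold change of -1.32 ± 0.10 (edgeR adjusted p = 0.00193). EPHA4 and EPHB3 were 1.59-fold and 1.54-fold higher in BT474. EPHA1 ran the other way with 74.01 and 67.04 RPM in SKBR3 and 36.04 and 33.4 in BT474, a log2 fold change of 1.02 ± 0.10 (edgeR adjusted p = 0.00292), and EPHA2 and EPHB4 were 1.46-fold and 1.32-fold higher in SKBR3.

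IGF1R, the receptor of insulin-like growth factor 1 (chromosome 15, 99191768 to 99507759, plus strand), was the receptor with the highest island cover in BT474. Islands took up 64.5% and 66.1% of its window in BT474 and 40.4% and 37.4% in SKBR3. It held 612.7 and 639.5 RPM in BT474 and 370.1 and 317.5 in SKBR3, a 1.82-fold difference (edgeR adjusted p = 0.0035). The mark in both replicates covered 200 kb in BT474 and 105.4 kb in SKBR3, with 93.6 kb shared. The longest stretch ran 53.8 kb in BT474, from 63.8 to 117.6 kb past the start site, and 25.2 kb in SKBR3, from 204.8 to 230.0 kb past it. INSR and INSRR, the other receptors of the group, did not pass the test.

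RET, the receptor of the GDNF family (chromosome 10, 43572512 to 43625799, plus strand), held 94.24 and 90.31 RPM in BT474, and 2.458 and 18.38 in SKBR3. The SKBR3 replicates were far apart, and the log2 fold change of -3.14 had an SE of 0.90 (edgeR adjusted p = 0.0455). AXL, the TAM receptor of GAS6 (chromosome 19, 41725128 to 41767671, plus strand), held 22.42 and 22.18 in BT474 and 3.55 and 3.785 in SKBR3, with a log2 fold change of -2.60 ± 0.16 (edgeR adjusted p = 0.00133). The SKBR3 islands of its window lay wholly past the end of AXL, in the neighbouring gene HNRNPUL1, so no island was listed over the AXL gene body in SKBR3. FLT3 held 10.62 and 11.28 RPM and NTRK3, a neurotrophin receptor, 4.727 and 6.365 in BT474, with no island in SKBR3 (edgeR adjusted p = 0.00309 and 0.00766). Absence of any island from both SKBR3 libraries with islands in BT474 applied to 5 of 49 receptors and to 10.7% of all protein-coding windows, and the reverse to 2 of 49 and 3.43%.

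Some calls were lost without the flanks, among the receptors and over all windows. Over all windows, 4023 were called higher in SKBR3 and 5330 in BT474 with the gene body alone, against 4972 and 6164 with the flanks. With the gene body alone, 7 receptors no longer passed, namely TYRO3 (edgeR adjusted p = 0.397), EPHB3 (0.2), EPHA4 (0.179), PDGFRA (0.149), RET (0.126), RYK (0.0851) and FGFR1 (0.0776). Of the TYRO3 reads 23.7% and 28.7% lay in the body in SKBR3 and BT474.

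The calls of 16 receptors were lost in at least 1 of the 4 fits that each left out a library. Without BT474 replicate 2 the edgeR adjusted p became 0.13 for RET, 0.156 for EPHA5, 0.206 for NTRK3, 0.178 for PDGFRA, 0.0736 for FLT3, 0.0534 for FGFR3, 0.0888 for LTK, 0.0901 for MST1R and 0.0565 for PTK7. It became 0.163 for EPHA4, 0.0682 for EPHB3, 0.1 for EPHB4, 0.0896 for EPHA2, 0.0683 for ALK, 0.0669 for RYK and 0.2 for DDR2. Without BT474 replicate 1 it ranged from 0.0549 for FGFR3 to 0.244 for PDGFRA over the same genes except PTK7, which kept its call. DDR2 was lost without any 1 of the 4 libraries, EPHA4 also without SKBR3 replicate 2 (0.0973), and PDGFRA and RYK also without SKBR3 replicate 1 (0.0935 and 0.0689). The other 22 called receptors, 13 higher in SKBR3 and 9 higher in BT474, kept direction and threshold in all 4 fits.

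Of the 49 receptors, 11 did not pass the test, with edgeR adjusted p between 0.0715 for MERTK and 0.771 for INSRR. They were EPHA8, EPHA10, EPHB2, EPHB6, INSR, INSRR, KDR, KIT, MERTK, NTRK2 and ROS1. Their cover ranged from KDR, with 1.49% and 0% in SKBR3 and 2.98% in both BT474 replicates, to MERTK, with 33.5% and 32.7% in SKBR3 and 35.9% and 38.4% in BT474.

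The extent of the mark gave the same directions with fewer calls. Of the 48 receptors with at least 1% mean cover, 12 had higher cover in SKBR3 and 12 in BT474 by limma, against 23.0% and 30.5% of 17380 windows, and all 24 were also called by reads. NTRK3 fell under that minimum. The cover calls in SKBR3 were CSF1R, DDR2, EPHA1, FGFR2, FLT1, MET, MUSK, PDGFRB, ROR1, ROR2, TEK and TIE1. Those in BT474 were AXL, EPHA3, EPHA5, EPHA6, EPHA7, EPHB1, FGFR3, FGFR4, FLT3, FLT4, IGF1R and RET. Without either BT474 replicate, 2 of the 12 calls in SKBR3 kept the threshold, and KIT passed it in addition without BT474 replicate 1. Without either SKBR3 replicate, 7 of the 12 calls in BT474 kept it. Summed over the receptors, 881.9 kb were in islands of both SKBR3 replicates and 833.8 kb of both BT474 replicates. The 447.2 kb shared by the lines were 50.7% of the former and 53.6% of the latter. The same share over all protein-coding windows was not measured, so these values are not read as a trait of the receptors.

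Few receptor start sites carried the mark, and a few of them in 1 line alone. A start site counted as covered when at least 50% of the 2 kb centred on it lay in islands, in both replicates of a line. By this measure 6 of 49 receptors were covered in SKBR3 and 6 in BT474, beside 11.3% and 17.2% of all protein-coding genes. EPHA1 and MET were covered in every library (6.43% of all genes), with MET at 100%, 100%, 100% and 60%. DDR2 and MUSK were covered in SKBR3 alone (3.48% of all genes), MUSK with 100% and 93.5% in SKBR3 and 33.5% and 43.5% in BT474, and DDR2 with 62.6% and 100% against 17.4% and 7.35%. EPHA3, EPHA5, EPHA7 and NTRK2 were covered in BT474 alone (7.78% of all genes). EPHA7 had 100% in both BT474 replicates, EPHA5 100% and 89.7%, EPHA3 70% and 60%, and NTRK2 57.9% and 77.8%, and none of the 4 had any island base there in SKBR3. The choice of start site changed some of these genes. Read at the 5′ end of the annotated gene instead, DDR2 was covered in BT474 and not in both SKBR3 replicates, DDR1 and TYRO3 joined MUSK in SKBR3 alone, and CSF1R was covered in every library, whereas the BT474 genes stayed the same 4. With islands of at least the median reads, MUSK was left in SKBR3 alone and EPHA5 and EPHA7 in BT474 alone. At the canonical site, those of ALK and MST1R were covered in SKBR3 and in 1 of 2 BT474 replicates. PDGFRB missed the limit by its SKBR3 replicate 1 (49.6% and 69.7%, with none in BT474). In no library was the start site of 28 receptors covered (65.6% of all genes), among them IGF1R and FGFR2, whose mark lay in the gene body with 0% in the 2 kb in every library.

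The lines carry many gained and lost chromosome segments, and no copy number was measured, so copies of a segment and mark per copy cannot be told apart. As a bearing on this, each window was also fitted with its library scaled to the island reads of the 2 Mb on either side. The SKBR3 over BT474 difference of this level had the same sign as the receptor's in 30 of the 38 called genes, or 78.9%, beside 76.8% of all called windows. With regional scaling 15 of the 21 receptors higher in SKBR3 and 13 of the 17 higher in BT474 kept their call, or 71.4% and 76.5%, beside 63.7% and 74.4% of all called windows. These shares do not set the receptors apart from other genes. The region of TEK held 710.3 RPM in SKBR3 and 33.53 in BT474, that of EPHA7 24.4 and 356.7, that of FGFR3 238.2 and 1095, and that of EPHA3 185 and 601.2. For each of these 4 genes the surroundings held fewer island reads in the same line as the gene did. Of the other receptors with no island in 1 line, TIE1 went the same way, with 3283 regional RPM in SKBR3 and 1926 in BT474. The region of NTRK3 was nearly level (1180 and 1198), and that of FLT3 held more in SKBR3 (1893 and 1162), where FLT3 had no island. The region around MET held 5512 island RPM in SKBR3 and 1655 in BT474, and MET's log2 fold change of 2.12 became 0.39 (edgeR adjusted p = 0.0097). That of MUSK went from 1.32 to 0.0009 (adjusted p = 0.991) and that of FLT1 to 0.29 (0.106). CSF1R, PDGFRB and FGFR2 kept 3.51, 2.24 and 2.17 (adjusted p = 0.00146, 0.00164 and 0.00532). IGF1R moved the other way, from -0.865 to -1.50 (adjusted p = 0.00146), as its region was higher in SKBR3. The edgeR direction turned for ALK (-0.38, adjusted p = 0.0104) and EPHB4 (-0.98, 0.00256), which were then higher in BT474. It also turned, without passing the test, for EPHA2 (-0.19), MST1R (-0.11), FGFR1 (0.33) and PTK7 (0.10). RET (-2.04, adjusted p = 0.129) and EPHA5 (-3.56, 0.0716) lost the call. AXL (-2.47) and EPHB1 (-2.51) kept theirs. Of the receptors not called by the library-wide scaling, 4 passed the regional one, namely MERTK, NTRK2 and EPHA8 with more in BT474 and ROS1 with more in SKBR3. In both lines 100% of the ROS1 island bases also lay inside another annotated gene, and 0% of the EPHA8 reads lay in its body.

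**Figure D3:**
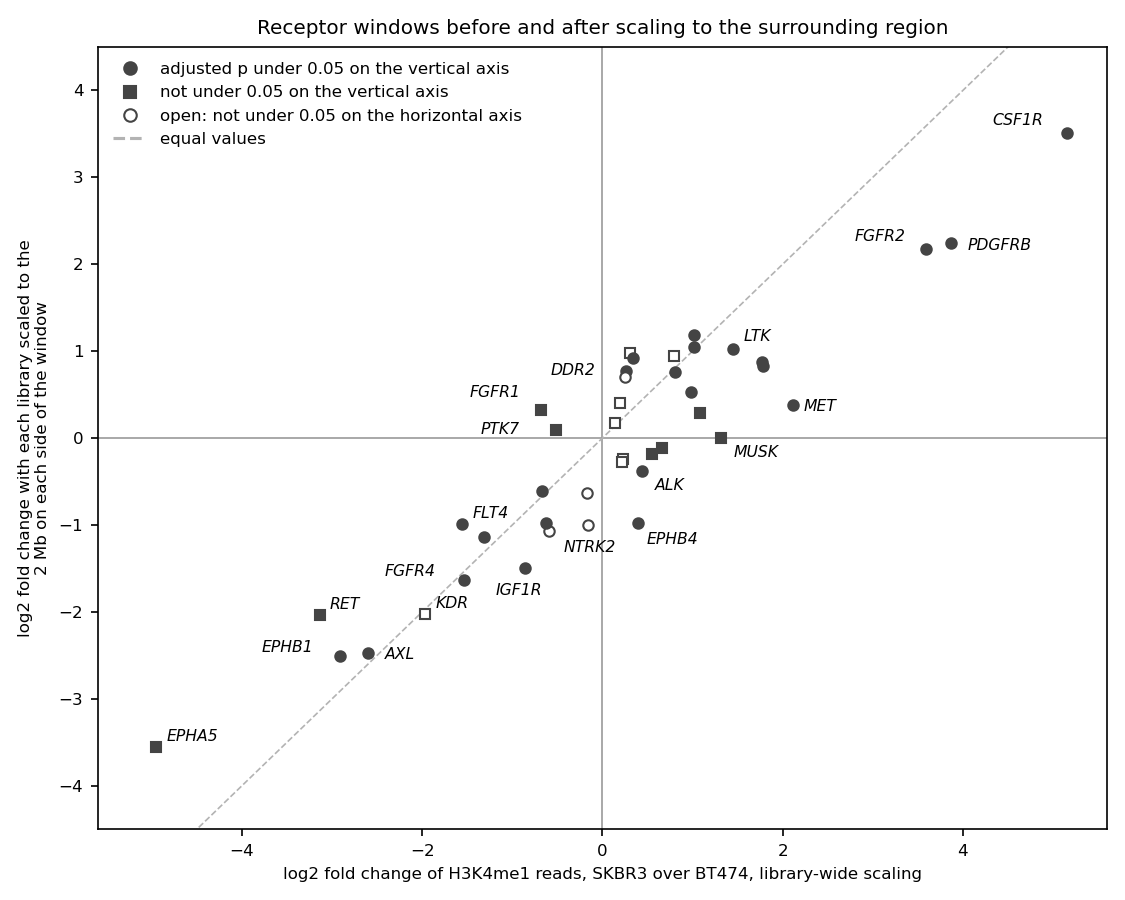
The log2 fold change of H3K4me1 reads, SKBR3 over BT474, of the 42 receptors with islands in both lines, under library-wide scaling (horizontal) and with each library scaled to the 2 Mb on each side of the window (vertical), with squares where the vertical value did not pass an adjusted p of 0.05 and open symbols where the horizontal one did not. MET and MUSK fall near or on the horizontal zero line, EPHB4 and ALK below it, and CSF1R, FGFR2, PDGFRB, AXL and EPHB1 stay far from it.

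Genes that act with the receptors were read from 2 lists chosen with earlier results of these data known. Of 49 ligand genes, 46 were tested by reads. Of these, 8 were higher in SKBR3 and 15 in BT474, with a median log2 fold change of -0.31. Over all windows tested, 28.0% were called higher in SKBR3 and 34.8% in BT474, with a median of -0.20. CSF1, the ligand of CSF1R, held 60.49 and 62.24 RPM in SKBR3 and 5.591 and 3.655 in BT474, a 13.2-fold difference (edgeR adjusted p = 0.00139). Both CSF1 and CSF1R thereby held more reads in SKBR3. FGF1 was 9.45-fold and ARTN, a ligand of the RET co-receptors, 6.23-fold higher in SKBR3. The ARTN reads lay mostly in its flanks, with 12.5% in the gene body in SKBR3 and 0% in BT474. FGF10, a ligand of FGFR2, PTN, and PROS1, a ligand of the TAM receptors, carried no island in SKBR3 and were called higher in BT474. In BT474, 61.9% of the PROS1 island bases lay inside another annotated gene. FGF10 held 47.32 and 45.88 RPM there. Of 19 adaptor genes, 5 were higher in each line, with a median of 0.01, beside the same 28.0% and 34.8% of all windows. CBL, a ubiquitin ligase that takes receptors down, was 5.82-fold and the scaffold GAB2 3.46-fold higher in SKBR3, as was NCK2 (1.98-fold). CBLB, a relative of CBL, was 5.74-fold higher in BT474, as were PIK3R1 (1.78-fold) and FRS3 (1.44-fold, turned to a log2 fold change of 0.27 with regional scaling, adjusted p = 0.164).

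HER2 peaks in receptor windows were about as dense as elsewhere in genes. The merged windows of 8846.7 kb held 8 peaks of the SKBR3 vehicle list, 6 of the SKBR3 EGF list, 24 of the BT474 vehicle list and 97 of the BT474 EGF list. In SKBR3 this was 0.0904 per 100 kb after vehicle (exact 95% Poisson interval 0.0390 to 0.178) and 0.0678 after EGF (0.0249 to 0.148), beside 0.0899 and 0.0898 over all protein-coding windows. In BT474 it was 0.271 after vehicle (0.174 to 0.404) and 1.096 after EGF (0.889 to 1.34), beside 0.314 and 1.06. The 200 genes nearest in length to each receptor had 0.0985, 0.0909, 0.327 and 1.08 per 100 kb in the same order. All 4 values over genes lie within the intervals of the receptors. The intervals cover counting error alone, and how deeply the HER2 libraries were sequenced is unknown. The lists themselves held 2596, 2520, 8559 and 29326 peaks, so the step from vehicle to EGF in BT474 was present in the list as a whole.

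**Figure D4:**
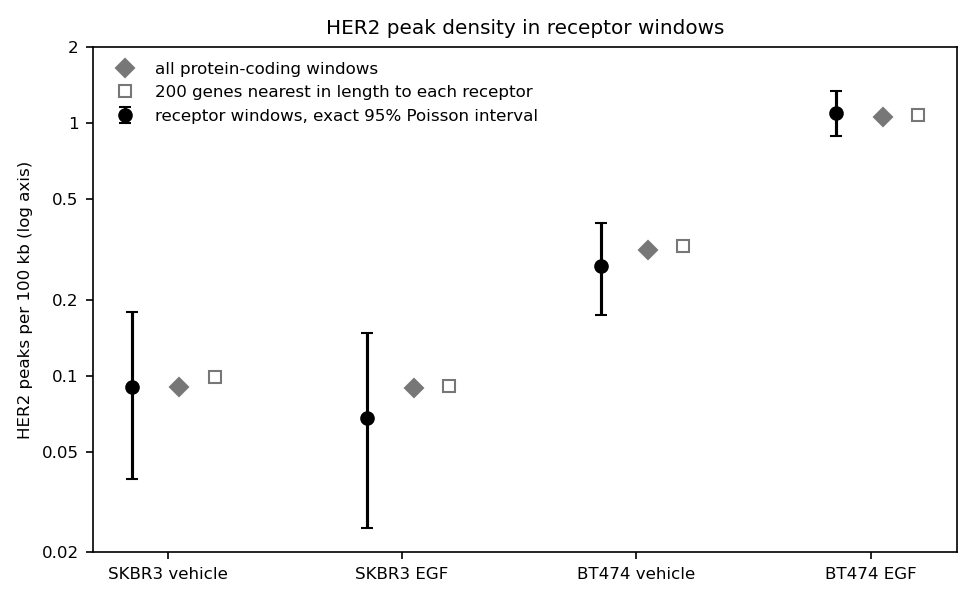
HER2 peaks per 100 kb on a log axis in the 4 lists, for the receptor windows (black, with exact 95% Poisson intervals), all protein-coding windows (diamonds) and the 200 genes nearest in length to each receptor (open squares). In each list both comparison values fall inside the receptor interval, and the BT474 EGF list is the densest at 1.096 per 100 kb.

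At least 1 peak lay in 8, 6, 16 and 35 of the 49 receptors in the SKBR3 vehicle, SKBR3 EGF, BT474 vehicle and BT474 EGF lists, beside 6.3%, 6.7%, 19.6% and 44.5% of all protein-coding genes. Receptor genes are long, and the share of their length neighbours would give 6.04, 6.165, 17.23 and 31.21 of 49. There were 12 receptors with no peak in any list, namely EPHA1, EPHA2, EPHB6, FGFR1, FGFR4, KDR, LTK, MST1R, PDGFRA, PDGFRB, TEK and TYRO3. The share of all genes or of length neighbours with no peak in any list was not counted, so nothing particular to the receptors is read from this number. Most peaks lay in introns, for example 78 of 97 in BT474 after EGF, and 2 of those 97 lay within 2 kb of a start site. The share of window bases in introns or near start sites was not measured, so no preference is read from these counts.

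The receptors with the most peaks per 100 kb in BT474 after EGF were short genes with few peaks each. DDR1 held 3 peaks, or 6.86 per 100 kb (exact Poisson interval 1.41 to 20), against a mean of 0.59 peaks in its 200 length neighbours, of which 7 had as many or more. AXL held 3 peaks, or 4.80 per 100 kb (0.989 to 14.0), against a mean of 0.63, and 6 of 200 had as many or more. DDR1 and AXL were picked from all the receptors by this same density. Their intervals and neighbour counts therefore cannot test whether either gene holds more peaks than genes of its length. INSRR held 5.12, TIE1 4.75, FLT4 2.94, KIT 2.90, PTK7 2.85, EPHA10 and FGFR3 2.81 each and FLT3 2.56 per 100 kb, from 1 to 3 peaks. Long genes held more peaks at lower density, up to 10 in ALK, whose length neighbours averaged 7.57. Receptors with more mark in BT474 lay on both sides of their neighbours. EPHA3 and EPHA5 held 1 peak each against means of 4.24 and 4.01, EPHA7 held 2 against 2.16, EPHA6 8 against 8.87, IGF1R 3 against 3.42 and EPHB1 6 against 5.33.

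Some receptor sites recurred between lists, as sites of the whole lists did. Of the 24 BT474 vehicle peaks, 22 overlapped a peak of the BT474 EGF list (91.2% of that whole vehicle list did), and those that did not lay in introns of NTRK2 and ROR2. Of the 6 SKBR3 EGF peaks, in AXL, INSR, INSRR, MUSK, PTK7 and ROR2, all 6 overlapped a BT474 EGF peak, beside 84.7% of that whole list. None of the 8 SKBR3 vehicle peaks overlapped a SKBR3 EGF peak and 2 overlapped a BT474 peak, beside 13.0% and 43.2% of that whole list. These differences from the whole list rest on 8 peaks and were not tested. The AXL site whose sequence is printed above lay in an intron 2.98 kb past the start site. It ranked 40 of 8559 by score in BT474 vehicle, 76 of 29326 in BT474 EGF and 794 of 2520 in SKBR3 EGF, and it lay in no H3K4me1 island of any library. The DDR2 site lay 41.5 kb past the start site, in islands of both SKBR3 libraries and of neither BT474 library, and ranked 707 in SKBR3 vehicle, 4563 in BT474 vehicle and 3643 in BT474 EGF. The NTRK2 site, 171.5 kb past the start site, ranked 2025, 1858 and 9429 in those lists and lay in no island.

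Few of the peaks lay in H3K4me1 islands of the same line. In BT474 the share was 8.33% of 24 peaks after vehicle and 13.4% of 97 after EGF, the same in both H3K4me1 libraries, beside 17.8% ± 0.896 and 16.2% ± 0.784 (SD, n = 2 libraries) over all protein-coding windows. In SKBR3 it was 31.2% ± 8.84 of 8 peaks after vehicle and 33.3% of 6 after EGF, beside 20.4% ± 0.677 and 19.5% ± 0.834. The SKBR3 shares rest on 2 or 3 peaks. Peaks in islands of both libraries of their own line were found in DDR1, DDR2, EPHA4, FLT4, IGF1R, MERTK, MET, MUSK, PTK7, ROR2 and RYK. The MUSK and PTK7 sites printed above lay in intron, 80.6 kb and 21.9 kb past the start sites, and ranked 1005 and 1025 of 2520 in SKBR3 EGF and 10607 and 11341 of 29326 in BT474 EGF. The MET peak lay 132 kb past the start site, in the downstream flank (rank 6823 in BT474 EGF), and that of RYK in an intron 49.3 kb past it (rank 1907). IGF1R had 2 such peaks, at 57.1 and 95.7 kb, the latter within the longest BT474 stretch.

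The core CGTNTGC has the letters of the motif that the paper found in its HER2 peaks of both lines. Its presence in these peaks is therefore no separate support for that motif. How often the core occurs outside the peaks was not measured. The core or its reverse complement GCANACG was present in 1 of 8, 2 of 6, 8 of 24 and 16 of 97 receptor peaks of the SKBR3 vehicle, SKBR3 EGF, BT474 vehicle and BT474 EGF lists. Among all peaks of these lists it was present in 8.44%, 15.9%, 19.4% and 11.8%. Of its copies over each whole list, 52.7%, 49.4%, 60.7% and 48.7% read GCATACG in 1 of the 2 directions, the form in the AXL and NTRK2 sites. The same letters occur in a primer used in sequencing libraries, and a part of that primer in these peaks was not tested.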

How the data were processed

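HER2 ChIP-exo (4 lists, 1 for each line and treatment) and H3K4me1 ChIP-seq (2 libraries for each line) were grouped by the line, treatment and antibody in the labels. The 2 input samples carried no list and were not analysed here. The authors' methods name bowtie2 mapping to hg19, removal of low-quality reads and of blacklisted and high-input regions, MACS2 for HER2 and SICER for H3K4me1, whereas the submitters' processing notes name BWA 0.5.9, MACS 1.4.1 and SICER 1.1. Read counts of H3K4me1 islands are whole reads and were taken as deposited. HER2 peak scores were used as deposited by the authors, their scale is not stated, and they were ranked only within a list.

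Genes came from GENCODE release 44 lifted to GRCh37, and sequence from GRCh37. Island reads were apportioned to windows (gene body and 10 kb each side) by the share of island bases inside. Reads were tested with edgeR 4.0.16 (TMM, quasi-likelihood, mean of at least 10 reads) and percent cover with limma 3.58.1 (trend, mean of at least 1%), SKBR3 against BT474, over all protein-coding windows with Benjamini-Hochberg adjustment at 0.05. DESeq2 1.42.0 was an alternative. RPM values refer to TMM-scaled island reads. HER2 peaks were assigned by midpoint, and overlap with islands needed 1 bp. Tested on simulated data for the reads comparison (17691 genes), 80% of 2-fold and 99% of 4-fold changes were recovered, and 0.0972% of unchanged genes were called. The simulation changed 100 windows at each size, under a preset spread, whereas 62.8% of windows were called in the data. The rates for the data themselves were therefore not measured. The counts of islands set the precision, and islands below the caller's minimum are not listed.

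The members and the lists were chosen with earlier results of these data known. Receptors were named if they passed either test, with the 12 of largest change in each direction in full, if their start site was covered in 1 line alone, if they were among the 10 densest in BT474 EGF peaks, or if they held a site in 3 lists or a peak in islands of both libraries of its line. Of the ligand and adaptor lists, the 3 of largest change in each direction were named. In total 35 alternatives were tried and none was added later. Same-numbered replicates did not deviate together (r = -0.0159 for log2 reads and -0.061 for cover), so the numbers do not pair the libraries.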

Additional observations from a re-analysis of the deposited data

Results flagged for a closer look

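In BT474 receptor windows held 4.04 times as many HER2 peaks after EGF (97 against 24), and in SKBR3 0.75 times as many (6 against 8), with overlapping exact Poisson intervals of 0.0249 to 0.148 and 0.0390 to 0.178 peaks per 100 kb. The ratio lay above 1 in one line and below 1 in the other. With 1 list for each condition the difference was not tested. The whole lists went from 8559 to 29326 peaks in BT474 and from 2596 to 2520 in SKBR3, and all protein-coding windows held 1357 and 1356 peaks in SKBR3.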

How the results depend on the processing

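Directions of the 38 receptors called by reads held under DESeq2, library-size scaling, no filter on low counts, the gene body alone and the replicate block, and 37, 34, 38, 31 and 27 of them also stayed past the threshold. Regional scaling turned 6, to log2 fold changes of -0.379 (ALK), -0.188 (EPHA2), -0.976 (EPHB4), -0.111 (MST1R), 0.325 (FGFR1) and 0.0981 (PTK7). Copy number of the segments was not measured.

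Leaving out each library in turn gave 13 to 21 receptors higher in SKBR3 and 9 to 18 in BT474 by reads, and 3115 to 7043 of all windows higher in BT474. By cover it gave 2 to 11 and 7 to 10 receptors, and 1182 to 2865 and 2374 to 3240 windows. These fits hold fewer samples, and a lone library is assumed to vary like the other line. Start sites covered then numbered 6 to 10 in SKBR3, 6 to 13 in BT474, 2 to 4 in SKBR3 alone and 4 to 8 in BT474 alone. Islands of at least the median reads left 3 covered in BT474, 1 in SKBR3 alone, 2 in BT474 alone and 1 in every library, and 2 kb on each side gave 7 in BT474 alone.

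With the replicate number as a block, 14 and 13 receptors were higher in SKBR3 and BT474 by reads and 8 and 12 by cover, beside 3825 and 4143 of all windows by reads. Of 38 calls by reads, 11 were not past the threshold with the block, and of 24 by cover, 4. Same-numbered libraries share only a number here.

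Keeping HER2 peaks of at least the median score left 0.4974 per 100 kb in BT474 EGF, as it removes peaks by construction. For the SKBR3 vehicle peaks it put the share in islands at 62.5%, and islands of the other line gave 12.5%, on 4 and 8 peaks. Depth is unknown for HER2, and islands below the caller's minimum are not listed.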
